A study of Mus musculus with 15 samples.

Results

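The 56 genes described here encode enzymes that add or remove acetyl and methyl groups on histones. They were taken as a list in 10 classes: class I and class IV histone deacetylases, class II histone deacetylases, sirtuins, acetyltransferases, demethylases, H3K4 methyltransferases, Polycomb repressive complex 2, H3K9 methyltransferases, H3K36 and H3K79 methyltransferases, and arginine methyltransferases. A CpG site belonged to a gene where it lay inside the gene or within 2 kb of either end, by the RefSeq gene table of GRCm38.p6. Of the 455836 CpG sites in the methylation table, 1416 belonged to these genes, and 53 of the 56 genes had at least 1 site. Hdac11, Kat8 and Kdm3a had none. Of the 1416 sites, 302 in 43 genes had a value in all 15 mice. Neighbouring genes shared 352 of the 1416 sites, so such a value cannot be assigned to the enzyme gene alone.

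Dentate gyrus was dissected from 15 female C57BL/6JRj mice aged 7.5 months, and its DNA was profiled by RRBS (reduced representation bisulfite sequencing, which reads CpG-rich restriction fragments). The standard group of 5 mice lived in standard cages for 6 months. The enriched group of 5 mice lived in an enriched environment for 6 months. The withdrawal group of 5 mice had 3 months of enrichment and then 3 months of standard cages. Each value is the percentage of methylated cytosines at 1 CpG on 1 strand in 1 mouse, and the number of reads behind it is unknown. Standard mouse 1 lacked a value at 48.1% of the enzyme genes' sites, against 4.38% to 31.3% in the other 14 mice. The dissected tissue holds neurons, glia and vessels, and no RNA was measured. At the gene starts of markers, levels were 1.21% to 7.68% for the 5 of 8 granule neuron genes with a site, 2.03% to 27.8% for 4 of 7 oligodendrocyte genes and 1.48% to 30.9% for 3 of 5 astrocyte genes. They were 3.58% to 71.5% for 3 of 4 endothelial genes and 24.7% to 95.7% for 3 of 5 microglial genes, so every type but microglia had marker starts below 5%. Shares of cell types in the samples were not measured.

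Histone acetyltransferases such as Ep300 and Crebbp loosen chromatin and favour transcription, and deacetylases and sirtuins remove the same mark. Methyltransferases write marks with different readings: H3K4 methylation lies at active promoters and enhancers, H3K27 methylation by Polycomb repressive complex 2 and H3K9 methylation accompany silent chromatin, and demethylases erase them. In the hippocampus several of these enzymes are studied for their part in memory and in the response of neurons to activity. CpG methylation of a gene's own DNA is a separate layer: CpG-rich gene starts are usually free of it, and gene bodies usually carry it.

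Promoter sequences show what the assay could read at these genes. RefSeq promoters of GRCm38.p6, 300 bases from 250 before to 50 after a start, matched 44 of the 56 genes by symbol. Nsd1, Kdm5a, Hdac10, Kmt2e, Kdm3b, Hdac3, Setd1b, Kat6a, Kdm4b, Hdac1, Kdm2a and Kdm6b were not matched. The first 4 below were chosen because each gene is described further on and has measured sites in the window, and Hdac9 because its window has none. All 5 lie on the minus strand and are written 5′ to 3′ along it, with every CpG that has a methylation value in capitals. They are Kat5 at chr19:5610045-5610344, Kdm2b at chr5:122989050-122989349, Sirt4 at chr5:115484248-115484547, Setdb1 at chr3:95357153-95357452 and Hdac9 at chr12:34917046-34917345.
Kat5: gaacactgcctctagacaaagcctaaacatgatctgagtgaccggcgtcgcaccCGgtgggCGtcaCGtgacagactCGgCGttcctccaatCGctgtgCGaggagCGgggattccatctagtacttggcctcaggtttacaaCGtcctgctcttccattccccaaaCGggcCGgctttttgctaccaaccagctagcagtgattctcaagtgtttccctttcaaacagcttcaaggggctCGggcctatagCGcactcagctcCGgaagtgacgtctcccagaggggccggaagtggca
Kdm2b: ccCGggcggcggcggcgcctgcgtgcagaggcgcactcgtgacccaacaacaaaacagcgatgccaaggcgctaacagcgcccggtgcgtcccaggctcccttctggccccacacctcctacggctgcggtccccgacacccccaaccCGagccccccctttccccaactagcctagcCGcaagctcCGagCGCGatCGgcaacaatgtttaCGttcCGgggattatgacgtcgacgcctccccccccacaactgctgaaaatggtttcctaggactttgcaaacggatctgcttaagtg
Sirt4: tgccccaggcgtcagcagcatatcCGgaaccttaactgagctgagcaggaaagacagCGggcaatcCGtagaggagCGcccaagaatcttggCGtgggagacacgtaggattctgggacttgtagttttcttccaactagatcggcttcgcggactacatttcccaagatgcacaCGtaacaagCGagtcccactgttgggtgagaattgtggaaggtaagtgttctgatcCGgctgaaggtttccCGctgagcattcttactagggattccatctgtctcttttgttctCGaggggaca
Setdb1: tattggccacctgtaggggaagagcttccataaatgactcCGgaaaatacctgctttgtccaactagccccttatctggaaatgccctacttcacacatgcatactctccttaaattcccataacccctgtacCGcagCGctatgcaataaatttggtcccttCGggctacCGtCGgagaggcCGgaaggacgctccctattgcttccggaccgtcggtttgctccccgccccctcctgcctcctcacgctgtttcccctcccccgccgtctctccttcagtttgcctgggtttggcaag
Hdac9: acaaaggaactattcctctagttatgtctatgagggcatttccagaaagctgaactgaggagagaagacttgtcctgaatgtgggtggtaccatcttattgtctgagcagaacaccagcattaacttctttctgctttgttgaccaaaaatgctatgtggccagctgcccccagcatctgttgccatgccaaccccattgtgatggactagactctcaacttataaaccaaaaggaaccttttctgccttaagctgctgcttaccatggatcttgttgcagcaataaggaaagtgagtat
The Kat5 window held 18 measured positions in 14 of its 19 CpGs, with a mean of 1.30% methylation. Kdm2b held 9 positions with a mean of 0.85%, and all of them had a value in all 15 mice. Sirt4 held 13 positions in 10 CpGs at 0.51%, and Setdb1 held 7 positions at 1.32%. The Hdac9 window holds no CpG, so no CpG level at that start could exist. RRBS reads fragments that begin at a cut site, and the common enzyme cuts at CCGG. This motif, which reads the same on both strands, was present in 49 of the 61 promoters of the matched enzyme genes (80.3%) and in 52.8% of all 32817 promoters in the table. Its presence did not mean that a promoter was measured. Most of the 61 promoters had no measured CpG, among them those of Crebbp and Kmt2c with 8 motifs each.

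The enzyme genes were almost free of methylation at their starts and variable inside. The start zone is the 2 kb to either side of the gene table's start. In the 33 genes with a site there, 502 start sites averaged 4.96%, and 95.4% of them were under 20%. The median of the gene means was 1.96%, beside 2.31% in 10062 other protein-coding genes. Only Kat2a and Ehmt1, 6.06% of the 33 genes, had a start mean of 20% or more, beside 17.9% of the other genes. Setdb1 lay just under that level at 19.9%. Where the orientation of a gene was not given, both its ends formed 1 zone: 278 such sites in 11 genes averaged 3.01%, and the highest gene was Kdm6b at 9.49%. Inside the genes, 564 sites in 40 genes averaged 41.2%, of which 47.3% were under 20% and 29.4% over 80%. The same body figures in other genes were 49.7%, 37.6% and 38.1%. These are descriptions over sites that lie close together, with no test.

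**Figure D1:**
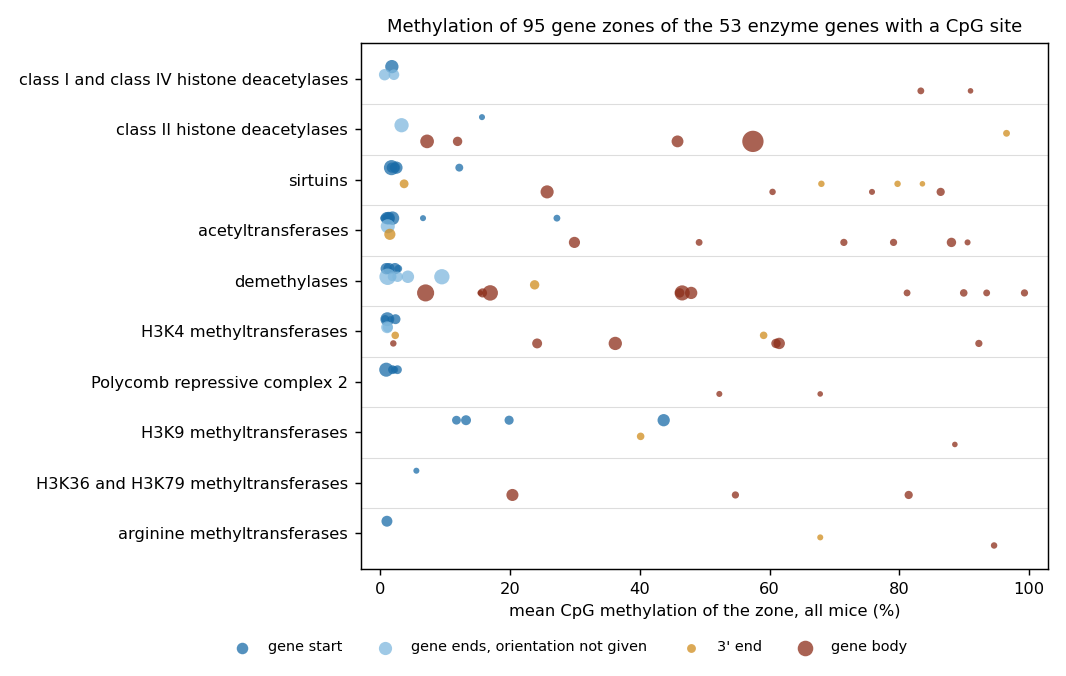
Mean CpG methylation over all mice (x axis, percent) of each gene zone of the 53 enzyme genes with a site, by enzyme class (y axis); 1 point is 1 zone of 1 gene and its area grows with the number of sites. Starts of the 4 H3K9 methyltransferases (11.7% to 43.7%), Kat2a (27.2%), Hdac7 (15.7%) and Sirt6 (12.2%) lie highest, the other starts lie at 6.58% or less, and gene bodies run from 2.0% to 99.3%.

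Class I histone deacetylases, the catalytic subunits of several corepressor complexes, had low levels at their starts and ends. Hdac2, which has been tied to memory in the hippocampus, averaged 1.77% over 29 start sites, the highest of them at 16.1%. The ends of Hdac1 averaged 2.09% over 17 sites and those of Hdac3 0.66% over 20 sites. All 20 Hdac3 sites also lay within 2 kb of another gene. None of these start and end sites had a value in all 15 mice. The 4 sites inside Hdac1 averaged 83.3%, with 3 neighbouring sites at 94.8% and 1 at 48.8% (chromosome 4, position 129518349). The last of these was the class's only site with a value in every mouse, at 45.4% ± 12.9 in standard, 56.4% ± 17.7 in enriched and 44.8% ± 9.56 in withdrawal animals.

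Class II deacetylases shuttle between nucleus and cytoplasm in neurons and muscle. They differed more from gene to gene. Hdac4 carried 27 sites within about 1 kb of a RefSeq start inside the gene, in a run of 21 at 1.54% and a run of 6 at 1.35%, and its 3' end averaged 96.5% over 4 sites. Hdac5 had a mean of 11.9% over 12 body sites, among them 7 at 3.95% and 3 further in at 35.6%. Hdac7 had 6 sites at 2.82% near an inner RefSeq start and 4 sites at 86.0% further in, and its 2 start sites averaged 15.7%. Hdac10 averaged 3.27% over 34 end sites.

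Hdac9, the longest of the genes at 869516 bp, held 82 sites, all in the body, with a mean of 57.4%. Its levels changed in steps along the gene. A run of 11 sites at chr12:34906871-34907422, 10014 bp from the nearest RefSeq start, averaged 0.93%. Sites further into the gene were methylated: 4 sites at chr12:34900502-34900608 averaged 82.3%, and 3 sites at chr12:34883082-34883146 averaged 93.3%. A second low run of 14 sites lay at chr12:34714228-34714771, 185598 bp from the nearest RefSeq start, and averaged 3.73% with no site above 9.62%. Towards the 3' end, 9 sites at chr12:34270015-34270225 averaged 77.2% and 6 sites at chr12:34248201-34248382 averaged 90.7%.

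**Figure D2:**
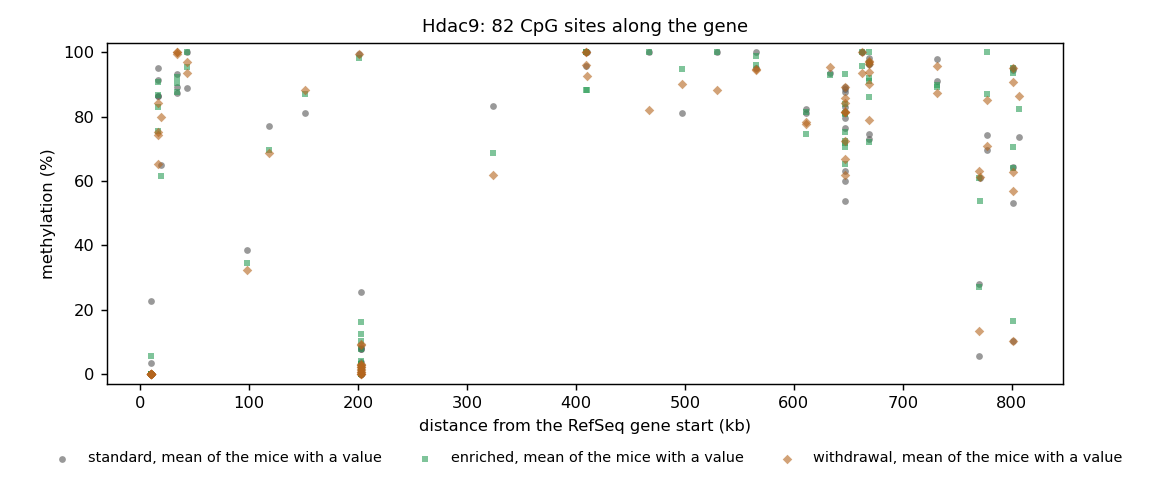
Methylation (y axis, percent) of the 82 CpG sites of Hdac9 against their distance from the RefSeq gene start (x axis, kb); each point is the mean of the mice of 1 housing group with a value at that site. The low run nearest the start averages 0.93% and the second one further into the gene 3.73%, with methylated sites on both sides of the second run.

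Sirtuins are deacetylases that depend on NAD, some of them in mitochondria. Sirt3, the main mitochondrial deacetylase, averaged 1.72% over 39 start sites, 14 of them with a value in every mouse, and all 39 were shared with Psmd13. Starts of Sirt7, Sirt5, Sirt2 and Sirt4 averaged 1.77%, 1.96%, 2.31% and 2.48%. The 24 Sirt4 start sites, at chr5:115490732-115492168, lie by the gene table's start and not at the RefSeq promoter printed above. All 25 Sirt7 sites, 14 of 16 Sirt2 sites and 24 of 55 Sirt4 sites were also assigned to other genes. Sirt6, a nuclear sirtuin, had the highest start mean of the class at 12.2%, with 1 of its 7 sites (chr10, position 81627999) at 49.1%. All 7 Sirt6 sites were shared with Ankrd24. In Sirt4 the RefSeq promoter printed above lies inside the gene table's span, and 14 sites around it averaged 0.92%, while 10 sites at the gene's 3' side averaged 69.6%. Sirt1, which acts on histones and transcription factors, had 7 body sites at 97.7% and 1 body site at 7.33%.

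**Figure D3:**
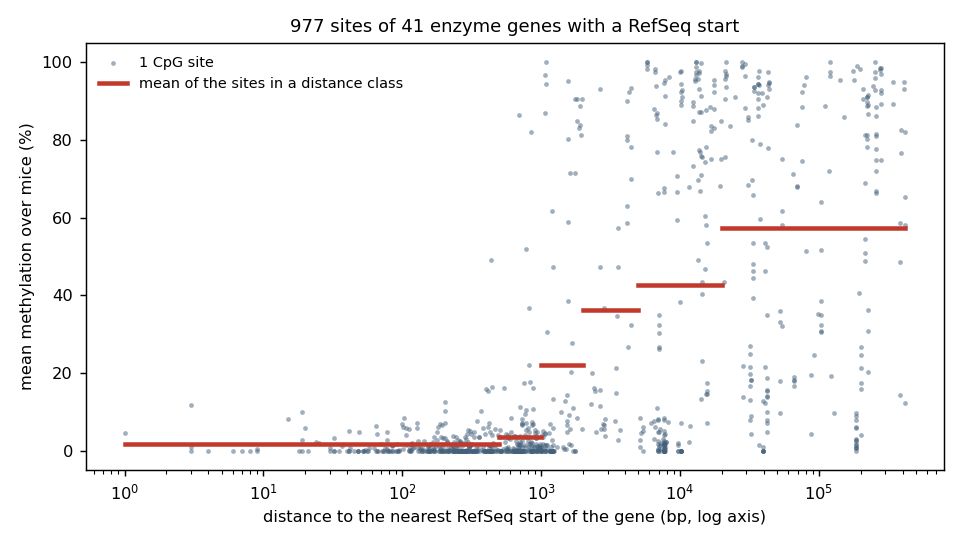
Mean methylation over mice (y axis, percent) of the 977 sites in the 41 enzyme genes that have a RefSeq start, against the distance to the nearest start (x axis, bp, log axis); red lines are the means of 6 distance classes. The line rises from 1.61% within 500 bp to 57.2% beyond 20 kb.

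Acetyltransferase starts were low with 1 exception. Ep300, a broad coactivator, averaged 1.00% over 24 start sites, and its partner Crebbp 0.54% over 5. Kat7, Kat5 and Kat6b averaged 1.28%, 1.30% and 1.87%. Kat2a, the acetyltransferase of the SAGA complex, averaged 27.2% over 4 sites that lie 1512 to 1551 bp upstream of its start. These 4 sites span a step within 40 bp, from 4.71% and 6.69% at the side nearer the gene to 38.6% and 58.9% at the other. All 4 are also within 2 kb of Hspb9 or Rab5c. Bodies of Ep300 (90.5%) and Kat7 (88.0%) were methylated, and the body of Kat6b was not uniform: 4 sites averaged 17.9% and 7 sites averaged 40.3%.

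Among the demethylases, starts or ends averaged 0.92% in Kdm1a, an H3K4 demethylase, and 9.49% in Kdm6b, which erases H3K27 methylation and is induced by neuronal activity. Kdm6b was the gene with most sites, 91. Its body averaged 6.98%. It held 4 runs of 14, 11, 5 and 27 sites at 0.62% to 1.91%, the last of which reached into an end zone, and a run of 6 sites at chr11:69407503-69407826 at 48.1%. Kdm2a, Kdm2b, Kdm4c and Kdm4a likewise had runs of low sites inside the gene. In Kdm2a 33 sites at chr19:4396091-4396576 averaged 1.43%. They lie just beyond the 2 kb zone of the gene's end at position 4398721, and 58 of the 66 Kdm2a sites are also assigned to 9430078G10Rik. In Kdm4c 8 sites at chr4:74252726-74252914 averaged 1.36%, and these 8 had a value in all 15 mice. They lie close to an inner RefSeq promoter at chr4:74251629-74251928. These low runs inside a gene thus lay by a RefSeq start in Kdm4c and near 1 end of Kdm2a. The orientation of Kdm2a was not given, so this end may be its start. Kdm1b (99.3%), Kdm5a (93.5%) and Kdm3b (89.9%) had the most methylated bodies of the class.

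H3K4 methyltransferases of the MLL family include Kmt2a, which is needed for memory formation in mouse forebrain neurons. Their starts or ends were between 0.75% (Kmt2d, 8 sites) and 2.34% (Kmt2a, 14 sites). Bodies ranged from 2.0% in Kmt2e, over 3 sites, to 92.3% in Setd1a, over 5 sites. In Kmt2d 7 sites at chr15:98834921-98834977 averaged 91.7% and 13 sites near the RefSeq start averaged 1.91% and 1.94% in their 2 runs. The 3' ends differed by gene, with 2.30% in Kmt2d, where sites also lie within 2 kb of Prkag1, and 59.1% in Kmt2c.

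The genes of the silencing systems had different levels around their starts. Polycomb repressive complex 2 genes, which encode the H3K27 methyltransferases Ezh1 and Ezh2 and their partners Suz12 and Eed, had start means of 0.91% (Suz12, 33 sites) to 2.64% (Ezh1, 10 sites). Their bodies had only 3 sites, 2 in Ezh1 averaging 52.3% and 1 in Ezh2 at 67.8%. H3K9 methyltransferase starts were between 11.7% and 43.7%, and in each of the 4 genes the mean combined sites near 0 inside the gene or at its start with methylated sites upstream. Ehmt1, which with Ehmt2 dimethylates H3K9, had 11 sites at 0.21% inside the gene 296 to 357 bp from the start. Its 13 sites from 744 to 1895 bp upstream averaged 80.5%, the lowest of them at 22.0%. In Setdb1, the writer of H3K9 trimethylation at retroelements, the 7 sites of the printed promoter averaged 1.32% and the 2 sites 1740 and 1813 bp upstream averaged 71.3% and 84.9%. Another 2 Setdb1 sites inside the gene averaged 16.1% and 36.8%. In Suv39h2, a writer of H3K9 trimethylation in constitutive heterochromatin, 12 sites averaged 0.31% and 2 sites 1737 and 1977 bp upstream averaged 90.6% each. Ehmt2 had 8 sites at 2.30% in the gene, and upstream 2 sites 19 bp apart, 1 at 8.37% and the other at 90.6%. These steps lie within the 2 kb that defined the zone. For all the enzyme genes with a RefSeq start, 84 sites at 1 to 2 kb from a RefSeq start averaged 21.9%, against 3.64% for 166 sites at 500 to 1000 bp. The 84 sites include highly methylated upstream sites of these 4 H3K9 methyltransferase genes. Their mean is therefore not separate from the steps above, and a mean without these genes was not computed. Some H3K9 methyltransferase sites are shared: 12 of 14 in Suv39h2 are also assigned to Dclre1c, and 8 of 16 in Ehmt2 to Slc44a4 or Zbtb12. No difference between the classes was tested.

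Of the H3K36 and H3K79 methyltransferases, Nsd1 had 16 sites at 0.39% and 3 sites at 78.5% inside the gene, Setd2 averaged 81.5% over 8 body sites, and Dot1l averaged 5.56% over 2 start sites. Of the arginine methyltransferases, Prmt1 averaged 1.02% over 18 start sites and Prmt5 94.6% over 3 body sites.

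Mice of 1 group differed most at intermediate levels. Among sites with a value in every mouse, the median SD within groups was 2.05 percentage points for the 188 sites under 20%, 16.9 for the 52 sites at 20% to 80% and 8.06 for the 62 sites above 80%. The same medians over all CpG sites were 3.99, 16.7 and 6.52. At 52 of the 302 sites all 15 mice read 0%. Where both strands of an enzyme gene CpG were measured (115 CpGs), they differed by 4.43 percentage points in a mouse on average. The median difference was 0 points over all 115 and 16.3 points for the 5 of them at 20% to 80%. The 5 zones with the narrowest spread were Kdm5a ends, Kdm2a body, Ep300 start, Kdm2b start and Kdm6b body, with SDs of 0.65, 0.70, 0.80, 0.85 and 0.92 points. Mice of the Kdm2b start zone, 14 sites, lay between 0% and 2.84%.

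The widest was the Kat6b body, 3 sites at chr14:21602289-21602331 with an SD of 13.0 points. Its standard mice read 64.7%, 33.9%, 27.2%, 40.9% and 49.3%. Its enriched mice read 74.1%, 57.4%, 56.9%, 37.4% and 25.2%. Its withdrawal mice read 52.5%, 51.4%, 54.4%, 46.1% and 60.5%. The standard and enriched ranges each covered all of the withdrawal values. Kat2a start (SD 11.8), Kmt2c body (11.4), Sirt4 3' end (7.50) and Kat7 body (7.05) followed.

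Class means lay close together across the housing groups. Over the 151 gene-end sites with a value in all mice, standard mice averaged 11.8% ± 0.48, enriched mice 11.4% ± 0.74 and withdrawal mice 11.7% ± 0.75 (SD, n = 5 each). Over 151 body sites the means were 46.8% ± 1.43, 46.4% ± 1.67 and 46.8% ± 1.45. Single mice lay between 10.5% and 12.9% at gene ends and between 44.3% and 49.0% in bodies, and the groups overlapped in both. Demethylase bodies, 62 sites in 9 genes, stood at 31.1% ± 1.93 in standard mice, 30.2% ± 1.08 in enriched mice and 28.8% ± 1.13 after withdrawal. Withdrawal mice there lay between 27.1% and 30.2% and standard mice between 29.2% and 33.6%, so they overlapped. Kdm4a, described below, gave 13 of these 62 sites, with means of 70.4%, 64.9% and 60.2% in the same order of groups. A class mean without Kdm4a was not computed, so the class means are not separate from that gene. Acetyltransferase gene ends averaged 5.11% ± 0.69, 3.96% ± 1.17 and 4.97% ± 1.66, also with overlap. They include the 4 Kat2a start sites shared with Hspb9 or Rab5c, which averaged 31.0%, 23.2% and 27.5%. Class means were not tested, since the genes were chosen with results known.

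**Figure D4:**
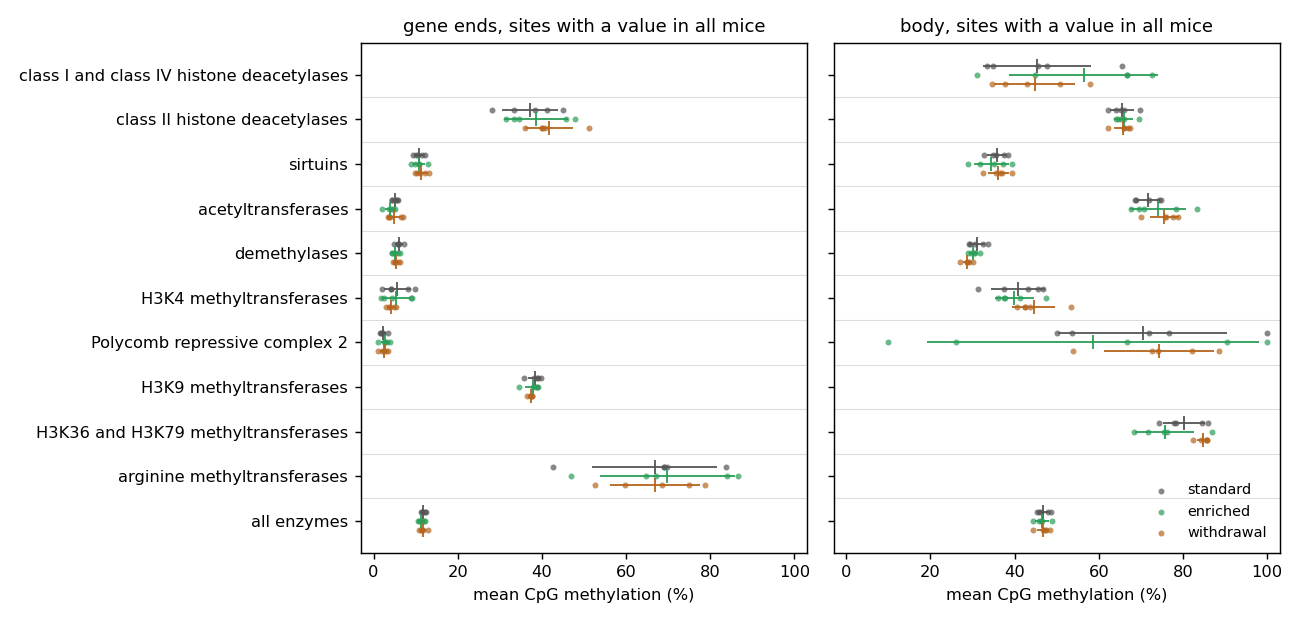
Mean methylation (x axis, percent) of gene ends (left) and gene bodies (right) per enzyme class (y axis) over sites measured in each of the 15 mice; points are mice, ticks are group means and lines are 1 SD. For all enzymes together the 3 groups lie at 11.8%, 11.4% and 11.7% at gene ends and at 46.8%, 46.4% and 46.8% in bodies.

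The first comparison asks whether 6 months of enrichment went with other levels than 6 months of standard cages. No enzyme gene passed the test: 0 of 231 sites, 0 of 42 windows of 1 kb and 0 of 36 gene zones had a Benjamini-Hochberg adjusted p under 0.05 by limma. Over all features tested, 0% of 100562 sites, 0% of 15677 windows and 0% of 9453 zones did. At an unadjusted p under 0.05 there were 8 enzyme sites (3 of them higher in enriched mice), where 5.15% of all sites were that low. Of the windows 2 of 42 did, beside 5.71% of all windows, and of the zones 1 of 36 (2.78%), beside 5.79% of all zones. Of the 547 zones of all genes at that level, 303 were higher in enriched mice. The median zone difference was -0.35 points in the enzyme genes and 0.05 in all zones tested.

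The smallest site p was at Sirt1, in the gene body on chromosome 10 at position 63330825, the low site named above. Standard mice read 5.56%, 28.6%, 18.2%, 10.3% and 17.4%. Enriched mice read 9.26%, 7.14%, 0%, 0% and 0%. Withdrawal mice read 4.71%, 7.58%, 0%, 1.28% and 0%. Most mice with a history of enrichment were below most standard mice, but standard mouse 1 lay within their range. The enriched mean was 12.7 points lower than the standard mean, a difference of -1.60 ± 0.50 (SE) on the transformed scale log2((percent + 5)/(100 - percent + 5)), with an adjusted p of 0.81 by limma. Without standard mouse 1 the difference was -15.3 points (limma adjusted p = 0.68). The body zone of Sirt1 rests on this site, since its other 2 sites read 100% in all 15 mice, and it differed by -4.24 points (limma adjusted p = 0.83).

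A site in the body of Kmt2d, on chromosome 15 at position 98833880, was the 1 enzyme site at which no enriched mouse overlapped a standard mouse, a pattern seen at 0.458% of all sites. Standard mice read 84.0%, 87.5%, 84.1%, 100% and 87.8%. Enriched mice read 61.8%, 61.2%, 76.8%, 67.9% and 65.6%, all below the standard mice. Withdrawal mice read 88.2%, 90.9%, 74.7%, 82.5% and 70.4%, between and across both. The difference of -22.0 points had a limma adjusted p of 0.82 (-23.2 points without standard mouse 1). No enzyme window or zone was free of overlap, beside 0.689% of all windows and 0.719% of all zones. At Kat7, an acetyltransferase of the HBO1 complex, a body site on chromosome 11 at position 95295984 averaged 87.0% ± 13.8 in standard and 56.8% ± 26.3 in enriched mice. Its enriched values ran from 16.7% to 81.2% and its standard values from 67.9% to 100%, so the groups overlapped (limma adjusted p = 0.88). The neighbouring 1 kb window of Kat7 had its means in the other order, at 78.9% ± 8.16 in standard and 89.1% ± 9.07 in enriched mice.

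In the low Hdac9 run, the window with 4 sites averaged 1.05% ± 0.97 in standard and 5.89% ± 6.22 in enriched mice. Enriched mouse 1 read 16.7% and the other enriched mice 1.49% to 5.52%, while the standard mice read 0% to 1.90%. The difference of 4.84 points became 0.93 when a site needed only 3 mice with a value in each group, and 2.15 without enriched mouse 1. The ends of Kdm6b had 4 of their 40 sites complete in all mice, at chr11:69399094-69399739. Standard means of these 4 sites ran from 4.04% to 92.2%. Of the 91 Kdm6b sites, 26 are also assigned to other genes. The 4 sites together averaged 41.9%, 45.6%, 44.7%, 32.0% and 31.5% in standard mice and 38.0%, 29.1%, 34.1%, 34.2% and 25.6% in enriched mice. The groups overlapped, and the difference of -6.95 points was -2.40 over the sites complete in the 14 mice other than standard mouse 1. The ends of Kdm5a, an H3K4 demethylase, averaged 0.11% ± 0.24 in standard and 1.18% ± 1.17 in enriched mice over 11 sites. That difference of 1.07 points was 0.48 when a site needed only 3 mice per group, and 0.57 without enriched mouse 5. Of the 11 sites, the 1 at position 120363582 on chromosome 6 averaged 9.76% ± 15.2 in enriched mice, with 34.8% in enriched mouse 5, and read 0% in every standard mouse. Of the 51 Kdm5a sites, 47 are also assigned to Ccdc77. The Kat5 window in the printed promoter averaged 4.32% ± 4.21 in standard and 0.72% ± 1.02 in enriched mice over 3 sites.

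The second comparison sets mice returned to standard cages against mice that never left them. Again 0 of 231 sites, 0 of 42 windows and 0 of 36 zones were called by limma, with 0% of all features called for each kind. At an unadjusted p under 0.05 there were 12 enzyme sites (6 higher in withdrawal mice), 1 window and 3 zones (8.33%), where all features had 4.42% of sites, 4.8% of windows and 5.08% of zones. Of the 480 zones of all genes at that level, 341 were higher in withdrawal mice. The median zone difference was 0.01 points in the enzyme genes and 0.25 in all zones. This comparison and the first share the standard mice, and it shares the withdrawal mice with the third.

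Kmt2c, an H3K4 methyltransferase that acts at enhancers, had the smallest site p, on chromosome 5 at position 25275651. Standard mice read 73.3%, 63.3%, 60.0%, 82.0% and 84.2%. Withdrawal mice read 100%, 100%, 100%, 89.6% and 91.7%, all above the standard mice. Enriched mice read 56.7%, 84.2%, 62.5%, 100% and 71.0%, across both ranges. The difference from standard was 23.7 points, or 2.42 ± 0.71 (SE) on the transformed scale, with a limma adjusted p of 0.96 (23.9 points without standard mouse 1). It was the 1 enzyme site without overlap between these groups, a pattern seen at 0.532% of all sites, and no window or zone was, beside 0.804% and 0.91%. At the Sirt1 site the difference was -13.3 points (limma adjusted p = 0.96), with the values given above. A body site of Kdm3b averaged 97.8% ± 2.10 in standard and 91.6% ± 2.27 in withdrawal mice, a difference of -6.12 points with standard mouse 5, at 94.1%, inside the withdrawal range.

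Kdm4a, a demethylase of H3K9 and H3K36, had the smallest zone p. Its body, 13 sites, read 79.1%, 64.3%, 61.0%, 70.9% and 76.9% in standard mice. Enriched mice read 53.7%, 67.4%, 62.3%, 76.1% and 64.7%. Withdrawal mice read 67.1%, 61.4%, 55.2%, 55.8% and 61.3%. Withdrawal mice were lower on average, and 3 of them lay within the standard range. The difference from standard was -10.3 points (limma adjusted p = 0.95), -8.10 without standard mouse 1, and -5.99 over the sites complete in the 14 mice other than standard mouse 1. The 5 neighbouring sites at chr4:118172982-118173052 had means of 43.4% for standard, 25.4% for enriched and 21.3% for withdrawal mice. In the same order of groups, 4 sites at chr4:118167580-118167623 averaged 83.4%, 89.8% and 79.2%, and 4 sites at chr4:118162473-118162515 averaged 91.3%, 89.3% and 89.7%. Withdrawal means were below standard means in all 3 runs, most in the first. The ends of Kat6a, an acetyltransferase of the MOZ complex, read 0% to 1.52% in standard and 0.80% to 4.94% in withdrawal mice over 5 sites. That difference of 1.86 points was 1.21 when a site needed only 3 mice per group, and 1.23 without withdrawal mouse 3.

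The third comparison sets withdrawal against continued enrichment. No enzyme site, window or zone was called by limma, and 0% of all features tested were. At an unadjusted p under 0.05 there were 7 enzyme sites, all 7 higher in withdrawal mice, 1 window and 1 zone (2.78%), beside 4.3% of all sites, 4.39% of all windows and 4.89% of all zones. Of the 462 zones of all genes at that level, 302 were also higher in withdrawal mice. The direction of the 7 sites was not tested and is not read as a trait of the enzyme genes. The median zone difference was -0.05 points in the enzyme genes and 0.18 in all zones.

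In Setd2, the writer of H3K36 trimethylation along transcribed genes, a body site on chromosome 9 at position 110612921 separated the groups. Enriched mice read 22.2%, 52.4%, 61.0%, 26.7% and 31.2%. Withdrawal mice read 65.6%, 68.8%, 83.3%, 62.3% and 72.9%, all above the enriched mice. Standard mice read 43.2%, 32.4%, 58.1%, 13.3% and 77.6%, a range that spanned most of both. The difference was 31.9 points (limma adjusted p = 0.98), and it was the 1 enzyme site of this kind where 0.51% of all sites were. The Setd2 body zone, 3 sites, averaged 72.7% ± 8.43 in enriched and 83.4% ± 2.91 in withdrawal mice and overlapped (limma adjusted p = 0.96). This zone difference rests mainly on the same site. The other 2 sites averaged 81.9% and 97.3% in enriched and 83.7% and 96.0% in withdrawal mice. No zone was without overlap, beside 0.815% of all zones.

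The Hdac9 window of 3 sites at chr12:34883082-34883146 was the 1 enzyme window without overlap, a pattern seen at 0.651% of all windows. Withdrawal mice read 100%, 100%, 100%, 100% and 99.3%. Enriched mice read 78.3%, 94.1%, 97.4%, 89.8% and 91.3%, all lower. Standard mice read 95.4%, 95.3%, 83.5%, 100% and 75.3%, and 1 of them reached the withdrawal level. The difference was 9.67 points from enriched mice (limma adjusted p = 1.00) and 9.95 from standard mice (0.99). The second was 6.30 without standard mouse 5.

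At Sirt4, a mitochondrial sirtuin, a body site on chromosome 5 at position 115486967 read 18.6%, 8.82%, 0%, 0% and 0% in enriched mice and 45.5%, 32.8%, 9.30%, 4.26% and 39.6% in withdrawal mice, with overlap. Its 3' end zone averaged 65.0% ± 7.34 in enriched and 73.2% ± 10.6 in withdrawal mice, a difference of 8.21 points that was 4.94 without withdrawal mouse 1 and 5.12 without enriched mouse 1. A start site of Ep300 (chromosome 15, position 81586653) read 0% in all 5 enriched mice and 3.85%, 10.4%, 0%, 20.8% and 7.69% in withdrawal mice, a difference of 8.56 points that was 5.49 without withdrawal mouse 4. The Kat5 start, 3 sites of the printed promoter, read 0%, 2.13%, 1.49%, 0% and 0% in enriched mice and 5.41%, 4.60%, 5.38%, 4.60% and 0% in withdrawal mice. Withdrawal mouse 5 was at the enriched level, and the difference of 3.27 points was 1.18 when a site needed only 3 mice per group. Standard mice at the same sites read 8.89%, 7.84%, 4.86%, 0% and 0%, spread over both groups.

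**Figure D5:**
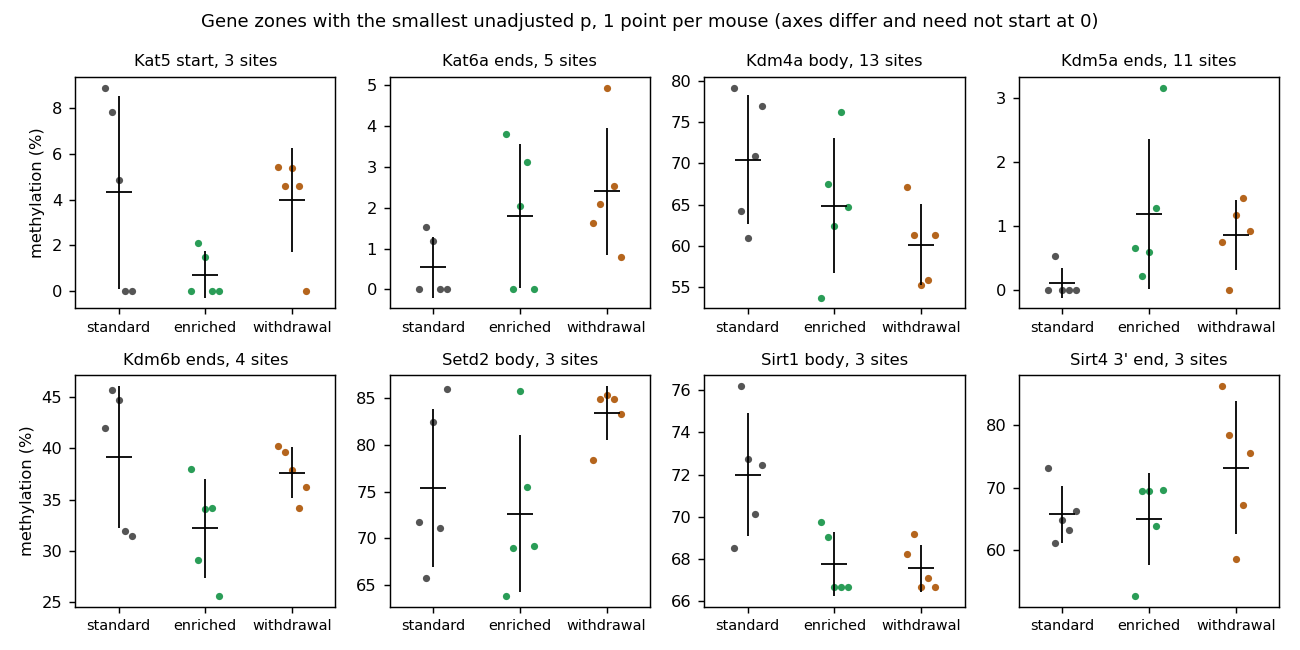
Methylation (y axis, percent, a different range in each panel) of 8 enzyme gene zones by housing group (x axis). Each zone is among the 3 with the smallest unadjusted p in at least 1 of the 3 comparisons. Points are mice, bars are the mean and 1 SD of 5 mice. In all 8 zones the groups overlap, for example the Setd2 body at 63.8% to 85.8% in enriched and 78.4% to 85.4% in withdrawal mice.

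Other genes of the same chromatin machinery also had no call. In a list of 48 further histone acetylation and methylation enzymes, 29 genes with 34 zones could be tested, and in a list of 34 non-enzyme partners of their complexes, 15 genes with 17 zones. None of these zones was called by limma in any comparison. At an unadjusted p under 0.05 the further enzymes had 4, 3 and 2 zones in the 3 comparisons in the order above (11.8%, 8.82% and 5.88%), and the partners 0, 1 and 1 (0%, 5.88% and 5.88%). The shares over all zones were 5.79%, 5.08% and 4.89%. The smallest adjusted p was at the ends of Ash1l, an H3K36 methyltransferase, where withdrawal mice averaged 1.98% and standard mice 0.17% (limma adjusted p = 0.63). The start of Jmjd6, singled out after its values were seen and a hydroxylase with reported arginine demethylase activity, had means of 9.52% for standard, 0.54% for enriched and 0.62% for withdrawal mice, with limma adjusted p of 0.76 and 0.94 against standard.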

How the data were processed

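Genomic DNA of micro-dissected dentate gyrus was profiled by RRBS, 1 library per mouse, with groups taken from the housing labels. The authors deposited percent methylation per cytosine and strand, without coverage, so read depth is unknown and counting error could not be computed. Trim Galore 0.4.0, cutadapt 1.8.1, Bismark 0.16.1, methylKit 1.5.2 and build mm10 are named per the submitters' processing notes, and read filters are not given in the sources used here. Bisulfite does not separate 5-methylcytosine from 5-hydroxymethylcytosine.

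The table runs through the chromosomes 2 times. The first run was used as CpG sites: all 40308 of its positions inside RefSeq promoters fell on a CG of GRCm38.p6. Zones were start and 3' end (within 2 kb of an end, by strand), ends together where strand was not given, and body. Gene zones and windows of 1 kb needed 3 sites complete in 15 mice, and sites a range of 5 points. limma 3.58.1 (R 4.3.3) fitted 3 group means with a variance trend to log2((percent + 5)/(100 - percent + 5)), two-sided, with Benjamini-Hochberg adjustment over all features of a kind. The code was tested on simulated data. Named features were the 3 with the smallest p per comparison and kind, those without overlap between groups, the highest and lowest zones per class, start means of 20% or more, and the 5 widest and 5 narrowest zones. Runs of sites and single sites inside a gene were picked for description after their values were seen. The genes, lists and tests were chosen with earlier results of these data known. The labels name no cage or litter, so effects of a shared cage or litter cannot be told apart from those of housing. The p-values treat each mouse as independent and set group differences against the spread between mice. Alternatives changed the scale, offset, trend, filters, zone width, block and mice.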

Additional observations from a re-analysis of the deposited data

Results flagged for a closer look

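In 69 groups of 5 mice, over the 23 features described by mouse, 7 held 1 mouse far from the other 4. Chance gives this in about 1 of 20 groups of normally distributed values, a rate that does not apply to 3 of the 7, at Ep300, Kdm5a and the high Hdac9 window, where the other 4 mice all read exactly 0% or 100%. The 69 groups are also not independent, since some features share sites, and the Kat5 start and Kat5 window hold the same values. Repeats were removed from the 7 but not from the 69, and groups with equal values could not be flagged. The 7 can therefore not be set against that rate. At the Kmt2d site standard mouse 4 read 100% and the others 84.0% to 87.8%. At the Ep300 site standard mouse 2 read 18.6% and the others 0%. At the Kdm3b site standard mouse 5 read 94.1% and the others 98.1% to 99.1%. At the Kdm5a ends standard mouse 2 read 0.53% and the others 0%. At the Kat5 start withdrawal mouse 5 read 0% and the others 4.60% to 5.41%. In the low Hdac9 window enriched mouse 1 read 16.7% and the others 1.49% to 5.52%. In the high Hdac9 window withdrawal mouse 5 read 99.3% and the others 100%.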

How the results depend on the processing

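The number of enzyme sites, windows and gene zones called by limma was 0 in all 3 comparisons under every alternative run, 210 recomputed counts in all. In simulated data of this design the test called almost no changed single site and few windows with the smaller change, so counts of 0 there do not show that levels were alike. The lowest adjusted p of an enzyme feature was 0.54 for sites, 0.56 for windows and 0.69 for zones, and the whole table had at most 11, 3 and 3 called. The sites tested ranged from 231 to 902, the windows from 42 to 155 and the zones from 30 to 82. Leaving out each mouse in turn kept 0 called. Mouse numbers did not pair the mice: deviations of same-numbered mice correlated at -0.018 to 0.019 over 15 pairs, and 5 of 30 best matches had the same number. With the replicate number as a block, 0 enzyme features were called, and enzyme sites at an unadjusted p under 0.05 numbered 11, 12 and 8. The set of sites complete in the 14 mice other than standard mouse 1 was chosen after seeing the data. No difference described by mouse changed sign. Class means moved by more than the spread between mice in 45 cases, and not in 9, when sites with only 3 mice per group were added, and in 29 cases, and not in 25, with zones of 1 kb. The percentages carry no coverage, so differences of a few points at 1 site could not be set against counting error.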
